A study of Homo sapiens with 9 samples.

Results

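The 42 genes described here encode the machinery that carries proteins from the endoplasmic reticulum (ER) to the Golgi apparatus and back. They were chosen by name: the COPII coat and the factors that start it, the receptors for large and for other cargo, the TMED proteins, the KDEL receptors and the COPI coat. All 42 were found among the 57796 gene symbols of the files, and all 42 were among the 15109 genes with enough reads to be tested. RNA was measured by poly(A)+ RNA-seq in MCF10A-YAP cells, a line of immortalised, non-transformed breast epithelial cells (MCF10A) that overexpresses constitutively active YAP, a transcription coactivator of the Hippo pathway. They received a single guide RNA (sgRNA) by transduction and were then selected with antibiotic. There were 3 groups of 3 libraries: TRAM2-KO1 and TRAM2-KO2, each with a different sgRNA against TRAM2, and control, with a non-targeting sgRNA. All groups, control included, carry the activated YAP. Each group was a selected population of transduced cells, and no source used here describes it as a clone. The design text of the series names other conditions, an empty vector and the overexpression of TRAM2 and of YAP, so the groups follow the sample labels. That text also calls the replicates biological. No other source says whether they were separate cultures, so p values measure the spread between these libraries, which may be partly technical.

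TRAM2 encodes a membrane protein beside the translocon, the channel through which new secretory proteins enter the ER. Proteins that fold correctly leave the ER in vesicles with a COPII coat: the exchange factor PREB loads the GTPase SAR1 with GTP, SAR1 recruits the inner coat of SEC23 and SEC24, and SEC13 with SEC31 closes the outer cage. Cargo too large for an ordinary vesicle, such as procollagen, needs the receptors MIA3 (TANGO1) and MIA2. Vesicles with a COPI coat bring escaped ER residents back. The KDEL receptors bind the tail of soluble ER chaperones for that return trip, and the TMED proteins (the p24 family) cycle in both directions as cargo receptors.

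TRAM2 itself had 219, 210 and 203 CPM (read counts scaled to the normalised library size) in the TRAM2-KO1 libraries (here and elsewhere in the order A, B, C) and 216, 212 and 210 CPM with TRAM2-KO2, against 481, 464 and 475 CPM in the control libraries. It fell with both guides, by 1.17 and 1.16 on the log2 scale (SE 0.03 each, adjusted p = 4.41e-08 and 4.19e-08, edgeR). The libraries held between 21.75 and 27.56 M estimated reads, of which 98.45 to 98.49% fell on annotated genes. Of the 9 markers of mammary basal epithelium, 8 reached 1 TPM (a level per transcript length, scaled to the library), led by KRT5 at 1310 TPM, while TP63 was at 0.0739 TPM. Their summed TPM differed by group, at 2095 to 2170 in TRAM2-KO1 and 2525 to 2540 in TRAM2-KO2, against 2258 to 2324 in control, so TRAM2-KO1 lay below control and TRAM2-KO2 above it, and its part in the results was not tested. The luminal hormone-responsive list summed to 21.0 to 30.6 TPM over the 9 libraries, with overlap between the groups, nearly all of it GATA3 at 26.3 TPM, while PGR was at 0. Fibroblast, endothelial and adipocyte markers were near 0, with summed TPM of at most 3.24 for fibroblasts, 0.752 for endothelium and 0.351 for adipocytes over all 9 libraries; of the immune list, CD68 had 40.6 TPM and PTPRC 0.0123 TPM. In bulk RNA, fewer cells of a kind and less RNA per cell cannot be told apart. Annotated pseudogenes named after 7 of the 42 genes took at most 0.0064% of the reads of the gene they copy. Larger were the CTAGE genes, copies of MIA2, with 83.0% as many reads as MIA2 itself, and the read-through gene TMED7-TICAM2, with 19.8% as many reads as TMED7, so the levels of MIA2 and TMED7 are uncertain.

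In control cells the transport genes were abundant. Their median level was 98.4 TPM, against 11.7 TPM for all genes tested. All but MIA2 lay above that median, and 22 of the 42 were among the top 10% of genes tested. The most abundant was KDELR2, a KDEL receptor, at 292 ± 3.73 TPM (SD, n = 3), and the least was MIA2 at 11.3 ± 0.706 TPM, a ratio of 25.8. After KDELR2 came SURF4, a receptor for soluble secreted proteins, at 273 ± 1.73 TPM, then TMED9, TMED2 at 242 ± 1.51 TPM and ERGIC1 at 234 ± 7.60 TPM. At the low end stood KLHL12 at 15.5 ± 1.84, COPG2 at 11.9 ± 0.158 and MIA2. Of the 41 pairs of neighbours in this order, 20 were closer than the larger of their SDs, so much of the order between neighbours is not resolved. Together the 42 genes took 0.771 to 0.798% of the gene reads in TRAM2-KO1, 0.763 to 0.771% in TRAM2-KO2, and 0.761 to 0.769% in control. The TRAM2-KO1 libraries thus lay above all control libraries, by a narrow margin, while those of TRAM2-KO2 overlapped with control.

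**Figure D1:**
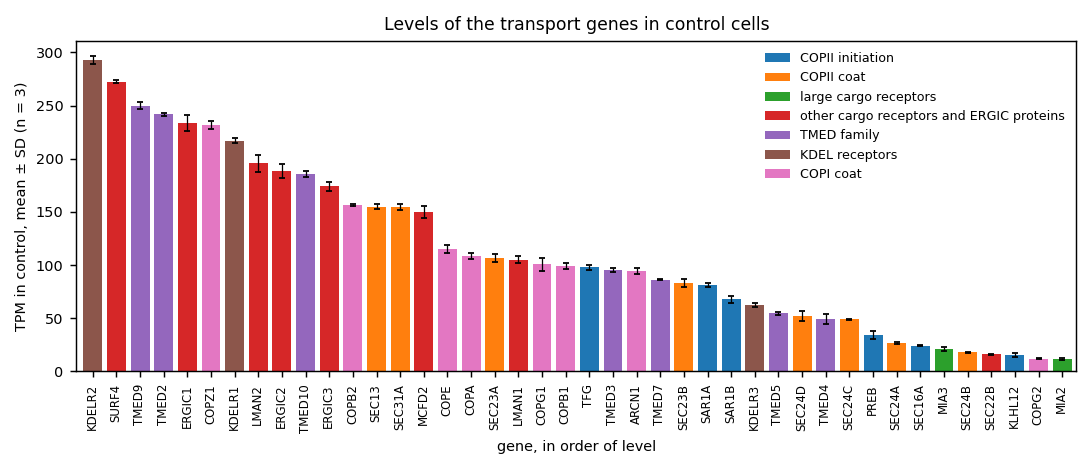
Levels of the 42 transport genes in control cells, in order. Bars are the mean TPM of the 3 control libraries with the SD, coloured by role; they span 292 TPM for KDELR2 to 11.3 TPM for MIA2.

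Paralogues differed in level within a family. In control, SEC23A took 56.2 ± 0.242% of the SEC23 TPM and SEC23B the rest, SAR1A took 54.6 ± 1.16% of the SAR1 TPM, and COPG1 took 89.4 ± 0.527% of the COPG TPM. Of the 4 SEC24 genes, whose products pick different cargo, SEC24D and SEC24C each took about the same share, 35.8 ± 1.98% and 33.6 ± 0.698%, followed by SEC24A at 18.4 ± 0.778% and SEC24B at 12.3 ± 0.582%. KDELR2 took 51.2 ± 0.342% of the KDEL receptor TPM, KDELR1 37.9 ± 0.347% and KDELR3 10.9 ± 0.358%.

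Few of the 42 genes passed the test against control, a share near that of all genes tested. A gene was counted as risen or fallen at an adjusted p under 0.05, and the limit of 0.5 in log2 fold change was looked at separately. With TRAM2-KO1, 2 of 42 rose (TMED3 and KDELR3) and 0 fell, against 2.96% of all genes tested that passed in either direction, 0.761% upward and 2.2% downward. With TRAM2-KO2, 1 rose (TMED3) and 1 fell (ERGIC1), against 4.25% of all genes, 1.75% upward and 2.5% downward. For the mean of both guides against control, TMED3 rose and ERGIC1 fell, against 3.87% of all genes, 1.34% upward and 2.53% downward. The shares of members called, 2 of 42 in each, were thus near the background. None of the 42 passed with a change beyond 0.5 in any comparison, by edgeR; among all genes 0.496% did so with TRAM2-KO1, 0.649% with TRAM2-KO2, 0.41% for the mean of both and 0.477% for TRAM2-KO2 against TRAM2-KO1. At an unadjusted p under 0.05, 7 of the 42 were higher and 4 lower with TRAM2-KO1, and 2 higher and 6 lower with TRAM2-KO2, against 18.6% and 15.0% of all genes in either direction. For the mean of both, 3 were higher and 6 lower, against 14.9%, and between the guides 1 was higher and 6 lower in TRAM2-KO2, against 19.9%.

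In the fit of all 9 libraries, the intervals also bound how far these genes could have moved. The 95% interval of the log2 fold change lay within 0.5 of 0 on either side for all 42 genes with either guide, against 70.5% of all genes tested with TRAM2-KO1 and 72.1% with TRAM2-KO2. It lay within 0.25 of 0 for 36 of the 42 with each guide, against 44.5% and 47.5% of all genes. Their levels were above those of most genes tested, as given for control, and the part of depth in these shares was not tested. Their median log2 fold change was 0.03 with TRAM2-KO1 and -0.02 with TRAM2-KO2, beside 0.01 and 0.00 over all genes tested. The intervals are those of this fit only, and without TRAM2-KO1 A, COPE was at -0.38 with TRAM2-KO1 (SE 0.08).

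**Figure D2:**
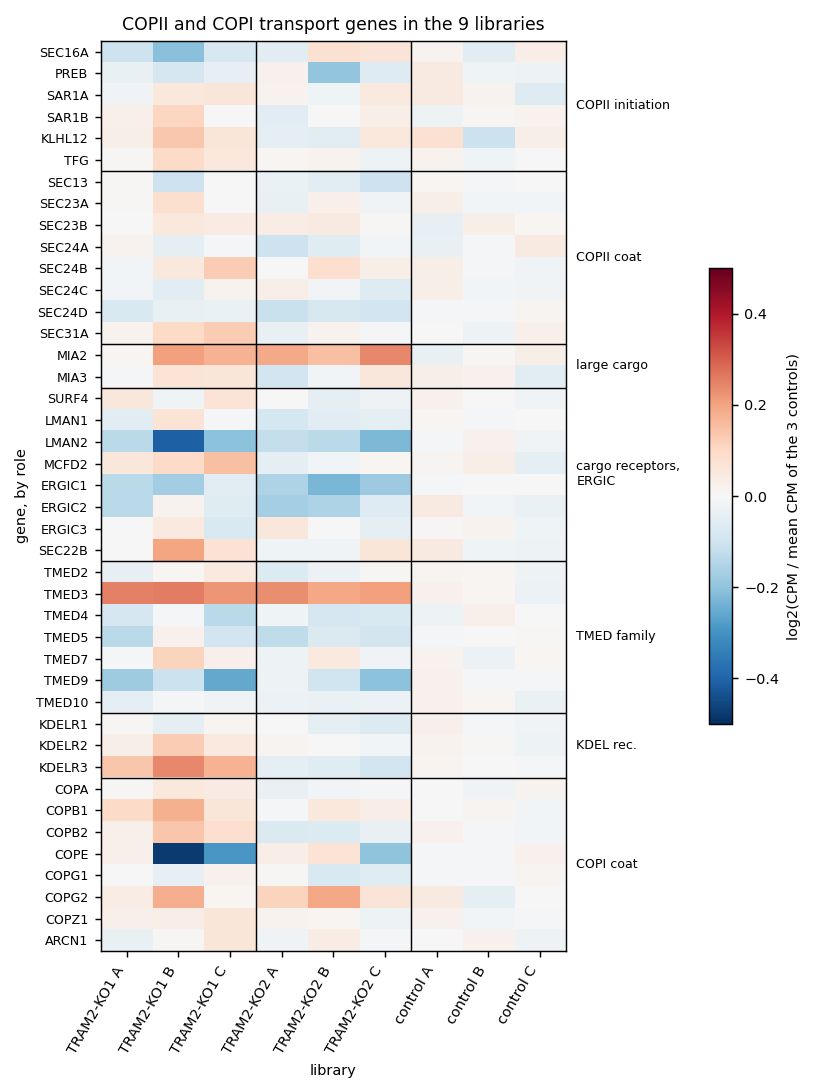
Log2 ratio of each transport gene's CPM to its control mean in the 9 libraries (columns, TRAM2-KO1 and TRAM2-KO2 left of control), genes in rows by role. TMED3 was higher in all 6 TRAM2-KO libraries, and COPE was lowest in TRAM2-KO1 libraries B and C.

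**Figure D3:**
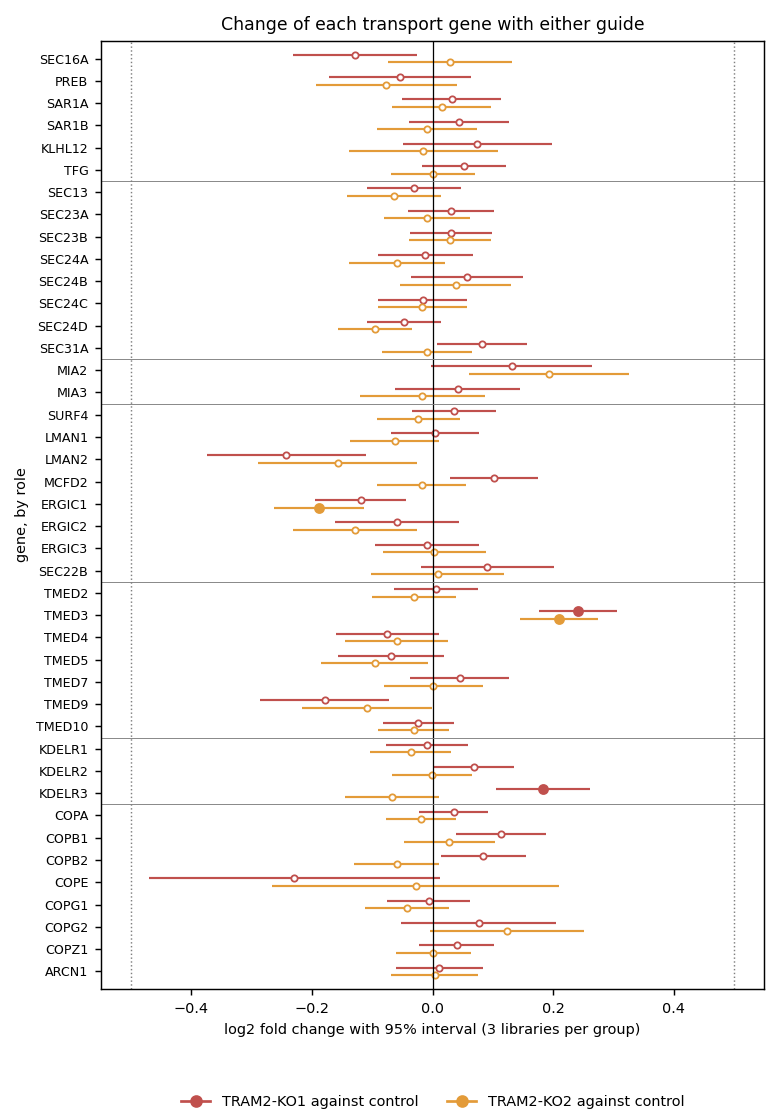
Log2 fold change with its 95% interval for each transport gene, TRAM2-KO1 above TRAM2-KO2 in each pair of lines; filled points passed at an adjusted p under 0.05. All intervals lie between the dotted lines at -0.5 and 0.5, and the filled points are TMED3 with both guides, KDELR3 with TRAM2-KO1 and ERGIC1 with TRAM2-KO2.

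Among the 6 genes that start the COPII coat, 0 passed with either guide by edgeR. At an unadjusted p under 0.05 there was 1, lower, with TRAM2-KO1 and 0 with TRAM2-KO2, against 18.6% and 15.0% of all genes. The 6 are PREB, the GTPases SAR1A and SAR1B, SEC16A (the scaffold of ER exit sites), TFG (which organises these sites) and KLHL12 (an adaptor that lets a ubiquitin ligase modify SEC31). Their log2 fold changes ran from -0.13 to 0.07 with TRAM2-KO1 and from -0.08 to 0.03 with TRAM2-KO2. TFG, the most abundant of them, had 137, 145 and 141 CPM in TRAM2-KO1 and 137, 138 and 134 CPM in TRAM2-KO2, against 138, 134 and 136 CPM in control. Its groups overlapped. SEC16A had 166, 154 and 169 CPM in TRAM2-KO1 and 172, 188 and 187 CPM in TRAM2-KO2, against 181, 172 and 183 CPM in control. All TRAM2-KO1 values of SEC16A lay below control, but the difference of -0.13 did not pass (SE 0.05, adjusted p = 0.179), and TRAM2-KO2 overlapped with control.

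The coat subunits of COPII were close to control as well. For SEC13, SEC31A, SEC23A, SEC23B and the 4 SEC24 genes the log2 fold changes ran from -0.05 to 0.08 with TRAM2-KO1 and from -0.10 to 0.04 with TRAM2-KO2, and 0 of the 8 passed with either guide by edgeR. At an unadjusted p under 0.05, 1 was higher with TRAM2-KO1 and 1 lower with TRAM2-KO2, against 18.6% and 15.0% of all genes. SEC13, an outer coat subunit that also serves in the nuclear pore, had 166, 154 and 165 CPM in TRAM2-KO1 and 161, 159 and 154 CPM in TRAM2-KO2, against 166, 165 and 165 CPM in control. Its TRAM2-KO2 libraries all lay under control, with a difference of -0.06 (SE 0.04, adjusted p = 0.466). The farthest from 0 with TRAM2-KO2 was SEC24D, at -0.10 (SE 0.03, adjusted p = 0.0976); it was at -0.05 with TRAM2-KO1 (SE 0.03, adjusted p = 0.383), and in each comparison its libraries did not overlap with control. The share of SEC24D in the SEC24 TPM was 33.1 to 38.2% in TRAM2-KO1 and 30.8 to 34.4% in TRAM2-KO2, against 34.6 to 38.0% in control, so TRAM2-KO1 overlapped with control and TRAM2-KO2 lay just below it.

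The receptors for large cargo did not pass. MIA3, which links procollagen in the ER lumen to the coat, had 50.1, 52.7 and 52.3 CPM in TRAM2-KO1 and 47.0, 49.7 and 52.2 CPM in TRAM2-KO2, against 51.2, 51.0 and 48.5 CPM in control. Its groups overlapped, and the 95% interval of its change ran from -0.06 to 0.14 with TRAM2-KO1 and from -0.12 to 0.09 with TRAM2-KO2. Most MIA3 RNA with a known protein came from the short form: the transcript of 785 codons, which lacks the lumenal part, had 9.64 ± 0.575 TPM in TRAM2-KO1, 9.23 ± 0.659 in TRAM2-KO2 and 8.85 ± 0.889 in control (SD, n = 3). The full-length form of 1907 codons had 2.48 ± 0.270, 2.62 ± 0.327 and 2.54 ± 0.0860 TPM in the same order of groups. Neither form set the groups apart. MIA2 had 21.1, 24.1 and 23.6 CPM in TRAM2-KO1 and 23.9, 23.2 and 24.7 CPM in TRAM2-KO2, against 20.4, 21.0 and 21.3 CPM in control. Only TRAM2-KO2 lay wholly above control, at 0.19 (SE 0.06, adjusted p = 0.125). With the CTAGE copies added, MIA2 had 40.2 to 44.6 CPM in TRAM2-KO1 and at least 41.9 CPM in TRAM2-KO2, against at most 38.7 CPM in control. This sum did not overlap with control for either guide and was not tested.

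The other cargo receptors and the proteins of the ER-Golgi intermediate compartment (ERGIC) held the gene that fell. ERGIC1 (chr5:172261254-172379795, plus strand, GRCh37) encodes a membrane protein that cycles between ER and Golgi with ERGIC2 and ERGIC3. It had 396, 385 and 419 CPM in TRAM2-KO1 and 390, 371 and 383 CPM in TRAM2-KO2, against 433, 435 and 436 CPM in control. All 6 TRAM2-KO libraries lay below all controls. It fell by 0.19 on the log2 scale with TRAM2-KO2, or by 12.2% (SE 0.03, adjusted p = 0.0106), and was at -0.12 with TRAM2-KO1 (SE 0.03, adjusted p = 0.101). The mean of both guides passed too, at -0.15 (SE 0.03, adjusted p = 0.0146). The change of ERGIC1 with TRAM2-KO2 passed in 15 of 20 other ways of processing the data, and was lost without control A, B or C, without TRAM2-KO2 B and with transcript length offsets, with adjusted p values of up to 0.215. Its main transcript, of 290 codons, had 159 ± 5.37 TPM in TRAM2-KO1 and 155 ± 1.46 TPM in TRAM2-KO2, against 173 ± 2.95 TPM in control. As a share of the TPM of the 3 ERGIC genes, ERGIC1 took 36.4 ± 2.18% in TRAM2-KO1 and 36.4 ± 0.565% in TRAM2-KO2, against 39.2 ± 0.757% in control, without overlap.

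Of the same group, LMAN2, a lectin that binds high-mannose glycoproteins, had 133, 110 and 126 CPM in TRAM2-KO1 and 134, 133 and 125 CPM in TRAM2-KO2, against 145, 148 and 144 CPM in control. Every TRAM2-KO library was below every control, and TRAM2-KO1 B was the lowest. The differences did not pass, at -0.24 with TRAM2-KO1 (SE 0.06, adjusted p = 0.0617) and -0.16 with TRAM2-KO2 (SE 0.06, adjusted p = 0.222). LMAN2 has 58.3% GC, and after removal of each library's GC trend it passed with both guides, at -0.14 (adjusted p = 0.0417) and -0.15 (adjusted p = 0.0150). SURF4 had 321, 304 and 324 CPM in TRAM2-KO1 and 309, 299 and 303 CPM in TRAM2-KO2, against 313, 309 and 305 CPM in control, with overlap throughout. LMAN1 and MCFD2, the receptor pair for coagulation factors V and VIII, were at 0.00 and 0.10 with TRAM2-KO1 and at -0.06 and -0.02 with TRAM2-KO2, and neither passed. Nor did ERGIC2, ERGIC3 or the SNARE SEC22B, with log2 fold changes from -0.13 to 0.09.

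TMED3 (chr15:79603454-79719774, plus strand, GRCh37) rose with both guides. It belongs to the gamma subfamily of the p24 proteins, which assemble with alpha, beta and delta members (TMED9 and TMED4, TMED2 and TMED10) into cargo receptors at the early secretory pathway. It had 126, 127 and 124 CPM in TRAM2-KO1 and 125, 121 and 122 CPM in TRAM2-KO2, against 108, 107 and 104 CPM in control. All 6 TRAM2-KO libraries lay above all 3 controls. TMED3 rose by 0.24 on the log2 scale with TRAM2-KO1, or 18.2% (SE 0.03, adjusted p = 0.00116), and by 0.21 with TRAM2-KO2, or 15.7% (SE 0.03, adjusted p = 0.00223). The guides did not differ detectably, with a TRAM2-KO2 minus TRAM2-KO1 difference of -0.03 and a 95% interval from -0.10 to 0.03. The rise passed in 19 of 20 other ways of processing with each guide, with log2 fold changes from 0.19 to 0.27 for TRAM2-KO1 and 0.19 to 0.23 for TRAM2-KO2. The exception in both cases was the count of protein-coding transcripts alone, with adjusted p = 0.0522 and 0.0648. The main coding transcript, of 217 codons, had 96.5 ± 1.83 TPM in TRAM2-KO1 and 98.0 ± 3.81 TPM in TRAM2-KO2, against 84.2 ± 5.20 TPM in control, without overlap between TRAM2-KO and control libraries.

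The other TMED genes did not rise with it. TMED5 and TMED7, of the same gamma subfamily, had 134, 150 and 138 CPM and 175, 189 and 178 CPM in TRAM2-KO1, and 135, 140 and 139 CPM and 172, 181 and 173 CPM in TRAM2-KO2, against 147, 148 and 148 CPM and 178, 172 and 176 CPM in control. TMED7 overlapped with control, while TMED5 overlapped with it in TRAM2-KO1 and lay below it in TRAM2-KO2, at -0.10 (SE 0.04, adjusted p = 0.277). TMED9, the most abundant TMED gene, had 224, 236 and 212 CPM in TRAM2-KO1 and 249, 237 and 220 CPM in TRAM2-KO2, against 257, 252 and 252 CPM in control. Both sets lay under control for TMED9, without passing (-0.18, SE 0.05, adjusted p = 0.0864; and -0.11, SE 0.05, adjusted p = 0.320). TMED3 took a larger share of the TMED pool: 12.5, 12.4 and 12.5% of the TPM of the 7 genes in TRAM2-KO1 and 12.2, 11.7 and 11.6% of it in TRAM2-KO2, against 9.88, 9.78 and 10.1% in control. Summed over the 7 genes, the pool was 898 to 927 TPM in TRAM2-KO1 and 930 to 976 TPM in TRAM2-KO2, against 949 to 977 TPM in control, so TRAM2-KO1 was below control and TRAM2-KO2 overlapped with it.

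KDELR3 (chr22:38864083-38879452, plus strand, GRCh37) differed between the guides. The KDEL receptors return chaperones with a KDEL tail from the Golgi to the ER. KDELR3 had 64.8, 64.3 and 62.8 CPM in TRAM2-KO2 and 73.8, 79.1 and 75.7 CPM in TRAM2-KO1, against 67.7, 66.9 and 66.5 CPM in control. The TRAM2-KO1 libraries lay above control and the TRAM2-KO2 libraries below it, without overlap on either side. It rose by 0.18 with TRAM2-KO1, or 13.6% (SE 0.04, adjusted p = 0.0189), and was at -0.07 with TRAM2-KO2 (SE 0.04, adjusted p = 0.430). The difference of TRAM2-KO2 from TRAM2-KO1 was -0.25 (SE 0.04, adjusted p = 0.00543) and passed in 19 of 20 other ways of processing, lost with transcript length offsets at adjusted p = 0.126. The rise with TRAM2-KO1 was less stable: it was lost in 6 of 20, namely without control A, B or C, without TRAM2-KO1 C, with only the compared libraries in the fit and with length offsets, at adjusted p values of up to 0.281. The transcript of 214 codons followed the gene, with 40.1 ± 0.138 TPM in TRAM2-KO2 and 46.8 ± 3.27 TPM in TRAM2-KO1, against 40.7 ± 1.89 TPM in control.

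KDELR1 and KDELR2 make up most of the receptor pool. KDELR2 had 519, 512 and 509 CPM in TRAM2-KO2 and 524, 560 and 531 CPM in TRAM2-KO1, against 520, 516 and 505 CPM in control; TRAM2-KO1 was just above control (0.07, SE 0.03, adjusted p = 0.258). All TRAM2-KO2 libraries of KDELR2 also lay below those of TRAM2-KO1, as for KDELR3, with a difference of -0.07 that did not pass (SE 0.03, adjusted p = 0.235). KDELR1 was at -0.04 with TRAM2-KO2 and at -0.01 with TRAM2-KO1, with overlap. The summed TPM of the 3 receptors was 557 to 583 in TRAM2-KO2 and 571 to 599 in TRAM2-KO1, against 568 to 574 in control, with overlap throughout. The RNA of ER lumenal proteins, not all of which these receptors bind, was also summed. A list of ER lumenal chaperones and enzymes, most of which carry a KDEL-like tail, summed to 5859, 6134 and 6238 TPM in TRAM2-KO1 and 5670, 5850 and 6006 TPM in TRAM2-KO2, against 6987, 7058 and 6863 TPM in control. Per 1000 TPM of that list there were 97.4, 97.6 and 93.7 TPM of KDEL receptors in TRAM2-KO1 and 98.3, 99.7 and 94.2 TPM in TRAM2-KO2, against 82.2, 81.2 and 82.7 TPM in control. This ratio of RNA levels was above control in all 6 TRAM2-KO libraries. The summed list lay below control in all 6, while the summed receptors overlapped.

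Of the 8 subunits of the COPI coat, 0 passed against control with either guide by edgeR. At an unadjusted p under 0.05 there were 2, both higher, with TRAM2-KO1 and 0 with TRAM2-KO2, against 18.6% and 15.0% of all genes. The 8 are COPA, COPB1, COPB2, ARCN1, COPE, COPG1, COPG2 and COPZ1, the alpha, beta, beta prime, delta, epsilon, gamma and zeta subunits, with gamma in 2 versions. Log2 fold changes ran from -0.23 to 0.11 with TRAM2-KO1 and from -0.06 to 0.12 with TRAM2-KO2, with medians of 0.04 and -0.01. COPZ1, the most abundant per length, had 136, 137 and 139 CPM in TRAM2-KO1 and 135, 134 and 131 CPM in TRAM2-KO2, against 136, 132 and 133 CPM in control, a spread of a few CPM. COPE, which has the highest GC content of the 42 genes at 62.1%, varied most: 73.2, 51.6 and 58.7 CPM in TRAM2-KO1 and 73.6, 75.4 and 62.6 CPM in TRAM2-KO2, against 71.4, 71.4 and 72.9 CPM in control. TRAM2-KO1 B and C were low and A was at the control level, a coefficient of variation of 18.0%, and its fold change of -0.23 did not pass (SE 0.11, adjusted p = 0.291). Without TRAM2-KO1 A it was -0.38 (adjusted p = 0.0137), a call not made when the GC trend was removed as well.

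COPB2 (chr3:139072788-139108578, minus strand, GRCh37) differed between the guides. It had 262, 262 and 268 CPM in TRAM2-KO2 and 280, 303 and 292 CPM in TRAM2-KO1, against 279, 274 and 273 CPM in control. The guides lay on opposite sides of control, each without overlap, at -0.06 (SE 0.03, adjusted p = 0.442) and 0.08 (SE 0.03, adjusted p = 0.200). The difference of TRAM2-KO2 from TRAM2-KO1 was -0.14 (SE 0.03, adjusted p = 0.0473), just past the threshold, and it passed in 5 of 20 other ways of processing. It was lost with the replicate block, with and without GC removal, with RLE factors, no filter, length offsets, protein-coding transcripts and the compared groups alone. It was also lost without any one of the 3 controls, without TRAM2-KO1 B or C and without any one TRAM2-KO2 library, with adjusted p values over all alternatives from 0.00735 to 0.413.

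Between the guides, 0 of the 42 genes were higher and 2 lower in TRAM2-KO2 than in TRAM2-KO1 (KDELR3 and COPB2), against 2.29% of all genes in either direction, 1.42% upward and 0.867% downward. By sign, 34 of the 42 were lower in TRAM2-KO2, or 81.0%, beside 52.1% of all genes tested, with a median of -0.04 against -0.01 over all genes. After removal of each library's GC trend the median of the 42 was -0.01. Without a test, 1 of the 42 (SEC16A) had TRAM2-KO2 libraries wholly above those of TRAM2-KO1 and 9 wholly below, against 9.52% and 11.9% of all genes, or 21.4% together. Set against control in the same way, 7 of the 42 had TRAM2-KO1 libraries wholly above the controls and 6 wholly below, against 11.9% and 11.1% of all genes, or 23.0% together. For TRAM2-KO2 these were 3 above and 10 below, against 11.4% and 12.4% of all genes, or 23.7% together. Both comparisons use the same 3 control libraries.

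**Figure D4:**
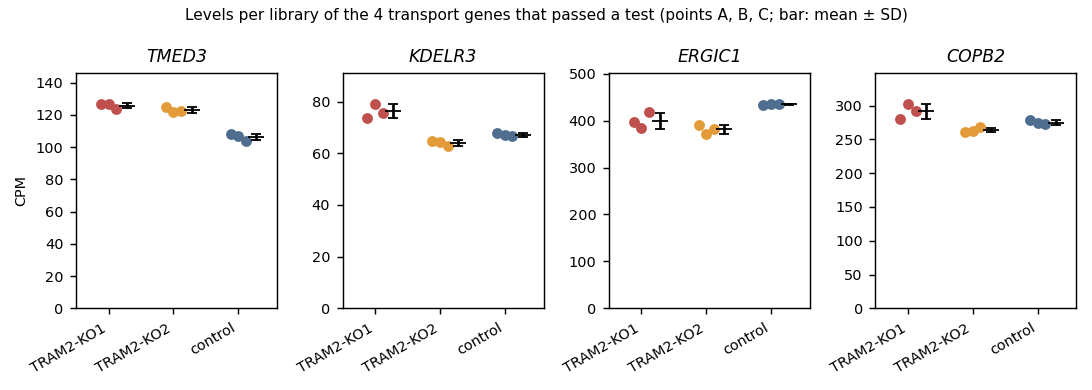
CPM per library of the 4 transport genes that passed in at least 1 comparison, with TRAM2-KO1 and TRAM2-KO2 left of control; points are libraries A, B and C and the bar beside them the mean with its SD. TMED3 was at 121 to 127 CPM in the TRAM2-KO libraries and at 104 to 108 CPM in control.

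GC content moved with part of these values. Across genes, deviations of a library from the mean rose or dropped with GC content: Spearman's rho was -0.641 and -0.451 in TRAM2-KO1 B and C, 0.23 in TRAM2-KO1 A, -0.124 to 0.502 in the TRAM2-KO2 libraries, and 0.206 to 0.323 in control. Among the 42 genes, with a median GC content of 44.4%, the fold change with TRAM2-KO1 had a rho of -0.43 with GC content, and all genes had -0.41; with TRAM2-KO2 it was -0.20, and -0.01 over all genes. These are correlations across genes that share libraries and are given as a description. The part of GC content in the single results was not tested beyond removing the trend. After that removal, rho among the 42 was 0.02 with TRAM2-KO1 and -0.16 with TRAM2-KO2, and for TRAM2-KO2 against TRAM2-KO1 it was -0.22, where it had been 0.41 before. More genes were then called, over all 15109 genes tested as well: 528 in place of 447 with TRAM2-KO1, and 1063 in place of 642 with TRAM2-KO2. TMED3 and KDELR3 rose and LMAN2 and TMED5 fell with TRAM2-KO1. With TRAM2-KO2, MIA2 and TMED3 rose and SEC24D, LMAN2, ERGIC1, ERGIC2 and TMED5 fell. Without TRAM2-KO1 A, whose GC trend differed in sign from that of B and C, 8 of the 42 passed with TRAM2-KO1 in place of 2, and 1965 of all genes in place of 447. With the GC trend removed as well, 3 of the 42 passed without TRAM2-KO1 A (TMED3, KDELR3 and TMED5), and COPE was not among them. Of all genes, 784 passed there.

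The promoters were a feature that the choice by name did not use. The promoter of each gene, from 250 bases before to 50 bases after the transcription start in RefSeq on GRCh38.p14, was found for 36 of the 42 (all but MIA2, SEC24D, ERGIC1, TMED4, TMED9 and KDELR2), and was searched on both strands for motifs of the unfolded protein response, which raises secretory capacity. TGACGTG, the core to which XBP1 and ATF6 can bind, stood in 10 of 36 (27.8%), in 9.09% of the 33 promoters of the ER lumenal list and in 3.27% of those of the 10907 genes tested that had one. GCCACGT, which shares the ACGT core and overlaps with TGACGTG where GCCACGTCA is read, stood in 15 of 36, in 21.2% of the lumenal list and in 5.48% of genes tested. At least 1 of these was in 19 of 36 (52.8%), against 24.2% and 8.01%, and the other 17 held neither. The ER stress response element (ERSE) stood in 0 of 36, but in 5 of the 33 lumenal promoters (HSPA5, HSP90B1, CALR, PDIA6 and CRELD2) and in 0.147% of genes tested. GGAATG, which TEAD factors, the partners of YAP, can bind, stood in 5 of 36 (13.9%), near the 15.2% of genes tested. A match is a description of the letters and not a site in use. TGACGTG was more frequent among these promoters than among those of all genes tested. For each of the 10 promoters that hold it, 1 window is shown. COPB2 holds another match 32 bases after the start, which is shown further below. Each window has the match or its reverse complement CACGTCA in capitals and 14 bases on either side:
SEC13 (chr3:10321235-10321269, minus strand): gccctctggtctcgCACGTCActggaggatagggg
SEC16A (chr9:136484704-136484738, minus strand): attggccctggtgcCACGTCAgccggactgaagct
SEC23A (chr14:39103219-39103253, minus strand): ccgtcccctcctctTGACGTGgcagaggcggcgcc
SEC24A (chr5:134648592-134648626, plus strand): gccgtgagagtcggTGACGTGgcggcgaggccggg
MIA3 (chr1:222644288-222644322, plus strand): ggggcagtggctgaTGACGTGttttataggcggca
KDELR3 (chr22:38468037-38468071, plus strand): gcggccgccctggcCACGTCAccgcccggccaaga
COPA (chr1:160343225-160343259, minus strand): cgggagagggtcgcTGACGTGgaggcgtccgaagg
COPB1 (chr11:14499838-14499872, minus strand): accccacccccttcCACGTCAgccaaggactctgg
COPB2 (chr3:139389822-139389856, minus strand): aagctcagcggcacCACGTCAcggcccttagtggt
COPE (chr19:18919371-18919405, minus strand): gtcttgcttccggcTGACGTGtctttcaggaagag

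The promoters of TMED3, KDELR3 and COPB2, 3 of the 4 genes that passed a test, are shown whole, with matches to TGACGTG and GCCACGT on either strand in capitals. TMED3 has 1 match, GCCACGT, 29 bases after the start. KDELR3 has GCCACGTCA, in which both motifs overlap, from 47 bases before the start, and COPB2 has TGACGTG on the other strand 162 bases before and 32 bases after the start and GCCACGT 85 bases before. HSPA5, a chaperone with a KDEL tail, is set beside them with its ER stress response element in capitals.
TMED3 (chr15:79310862-79311161, plus strand): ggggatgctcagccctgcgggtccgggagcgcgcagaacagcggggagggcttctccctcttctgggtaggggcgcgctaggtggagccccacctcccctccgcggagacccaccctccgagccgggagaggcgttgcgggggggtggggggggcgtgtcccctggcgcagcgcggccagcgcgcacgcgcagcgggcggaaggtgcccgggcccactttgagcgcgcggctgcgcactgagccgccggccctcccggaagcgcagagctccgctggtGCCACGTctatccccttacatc
KDELR3 (chr22:38467846-38468145, plus strand): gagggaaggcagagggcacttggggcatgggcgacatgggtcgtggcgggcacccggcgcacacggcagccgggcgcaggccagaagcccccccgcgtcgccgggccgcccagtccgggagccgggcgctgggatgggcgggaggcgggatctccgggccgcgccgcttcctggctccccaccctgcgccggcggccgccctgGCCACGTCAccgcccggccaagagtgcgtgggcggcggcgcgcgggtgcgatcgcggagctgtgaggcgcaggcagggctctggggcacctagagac
COPB2 (chr3:139389631-139389930, minus strand): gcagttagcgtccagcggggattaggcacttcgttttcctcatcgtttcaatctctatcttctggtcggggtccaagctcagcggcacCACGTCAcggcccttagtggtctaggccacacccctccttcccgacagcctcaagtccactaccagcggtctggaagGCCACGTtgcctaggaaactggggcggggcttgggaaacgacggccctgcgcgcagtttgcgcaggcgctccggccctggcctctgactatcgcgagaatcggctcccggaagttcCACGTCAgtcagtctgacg
HSPA5 (chr9:125241294-125241593, minus strand): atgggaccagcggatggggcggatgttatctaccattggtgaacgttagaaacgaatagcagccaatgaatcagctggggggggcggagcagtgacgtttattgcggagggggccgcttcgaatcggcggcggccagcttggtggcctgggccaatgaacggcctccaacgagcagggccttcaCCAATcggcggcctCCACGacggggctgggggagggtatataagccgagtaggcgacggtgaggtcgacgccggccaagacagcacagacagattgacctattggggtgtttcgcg

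Genes around this machinery were counted in the same way, beside the 2.96% of all genes that passed with TRAM2-KO1 and the 4.25% with TRAM2-KO2. With lists this short, counts of 0 or 1 are near those shares. At an unadjusted p under 0.05, the shares of all genes in either direction were 18.6% and 15.0%. Of 46 tethers, SNAREs and their partners, which serve the docking and fusion of vesicles at the Golgi or the ER, 0 passed with either guide by edgeR. At an unadjusted p under 0.05 there were 7 higher and 1 lower with TRAM2-KO1, and 1 higher and 0 lower with TRAM2-KO2. Their medians were 0.03 and 0.00. USO1, the tether p115, was nearest to passing with TRAM2-KO1, at 0.14 (SE 0.03, adjusted p = 0.0503), and at 0.03 with TRAM2-KO2 (adjusted p = 0.777). NSF, the ATPase that takes SNARE complexes apart, was at 0.14 and 0.02, GORASP2 at 0.08 and 0.05 and RAB18 at 0.08 and 0.06, none of which passed. Of the 15 genes of the ARF cycle, which recruits COPI, 0 passed with either guide by edgeR, with 1 higher and 1 lower at an unadjusted p under 0.05 with TRAM2-KO1, and 0 with TRAM2-KO2. ARF1, the GTPase of that cycle, had 354, 398 and 477 CPM in TRAM2-KO1 and 452, 489 and 495 CPM in TRAM2-KO2, against 511, 511 and 461 CPM in control, with overlap and wide scatter. ARF4, ARFGEF1 and BICD1 were at 0.09, 0.07 and -0.17 with TRAM2-KO1 and at 0.01, 0.06 and -0.15 with TRAM2-KO2.

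Of 22 other genes of COPII and ER export, 6 were higher and 5 lower with TRAM2-KO1 at an unadjusted p under 0.05. With TRAM2-KO2, 4 were higher and 1 lower. The shares of all genes in either direction were 18.6% and 15.0%. By adjusted p, 1 of the 22 rose with TRAM2-KO1 and 0 passed with TRAM2-KO2. The gene was CNIH1, a cornichon receptor that helps growth factor precursors leave the ER. It had 126, 135 and 125 CPM in TRAM2-KO1 and 124, 129 and 122 CPM in TRAM2-KO2, against 115, 114 and 115 CPM in control. All 6 TRAM2-KO libraries were above control, at 0.17 (SE 0.04, adjusted p = 0.0345) and 0.13 (SE 0.04, adjusted p = 0.0806), but the call with TRAM2-KO1 passed in 7 of 20 other ways of processing. BCAP29, SEC22C and MIA were at 0.16, 0.09 and 0.81 with TRAM2-KO1 and at 0.12, 0.09 and 0.68 with TRAM2-KO2, and none passed; MIA had few reads, at 0.691 to 1.66 CPM. A list of 13 genes held transcription factors of the secretory pathway and enzymes that activate some of them (ERN1, MBTPS1 and MBTPS2). At an unadjusted p under 0.05, 4 were lower with TRAM2-KO1 and 3 with TRAM2-KO2, and 0 higher with either. By adjusted p, 0 passed with TRAM2-KO1 and 1 fell with TRAM2-KO2. That was CREB3L2, which in mouse cartilage drives SEC23A: it had 227, 215 and 230 CPM in TRAM2-KO1 and 212, 217 and 222 CPM in TRAM2-KO2, against 242, 243 and 244 CPM in control. It fell by 0.16 with TRAM2-KO2 (SE 0.03, adjusted p = 0.0183) and was at -0.12 with TRAM2-KO1 (SE 0.03, adjusted p = 0.0935). The call with TRAM2-KO2 was lost in 6 of 20 other ways of processing, without control A, B or C, without TRAM2-KO2 A or B and with length offsets, at adjusted p values of up to 0.166. SEC23A itself was at 0.03 with TRAM2-KO1 and -0.01 with TRAM2-KO2. MBTPS1, ATF6B and ATF6 were at -0.14, -0.24 and -0.10 with TRAM2-KO1 and at -0.08, -0.04 and -0.11 with TRAM2-KO2, none past the threshold.

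Among lumenal proteins and large cargo, larger shares passed than the 2.96% of all genes with TRAM2-KO1 and the 4.25% with TRAM2-KO2. These lists were chosen with earlier results of these data known, so their shares are a description and not an independent result. The genes named are those with the smallest p for both guides. Of 36 ER lumenal genes tested, 2 rose and 20 fell with TRAM2-KO1, and 1 rose and 17 fell with TRAM2-KO2, with medians of -0.18 and -0.21. Not all of them bear a KDEL tail. PDIA4, a disulfide isomerase, had 211, 202 and 206 CPM in TRAM2-KO1 and 233, 234 and 233 CPM in TRAM2-KO2, against 339, 348 and 341 CPM in control, and fell by 0.73 and 0.55 (SE 0.03 each). HYOU1, an ER chaperone, fell by 0.46 and 0.38, PLOD2, a collagen lysyl hydroxylase, by 0.39 and 0.54, and FKBP9, a prolyl isomerase, by 0.41 and 0.35. Of 19 large cargo genes tested, 0 rose and 14 fell with TRAM2-KO1 and 1 rose and 9 fell with TRAM2-KO2, with medians of -0.40 and -0.30. The gene that rose, COL17A1, passed in opposite directions by edgeR. It was at -0.22 with TRAM2-KO1 (adjusted p = 0.00433) and at 0.22 with TRAM2-KO2 (adjusted p = 0.00310). COL4A1, COL8A1 and LAMB1 fell by 0.72, 0.34 and 0.33 with TRAM2-KO1 and by 0.59, 0.44 and 0.30 with TRAM2-KO2. The summed TPM of the large secreted cargo came to 9513, 8992 and 10367 TPM in TRAM2-KO1 and 9598, 10659 and 10525 TPM in TRAM2-KO2, against 12847, 12640 and 13744 in control. Beside these, the summed TPM of the COPII coat was 618 to 649 in TRAM2-KO1 and 606 to 661 in TRAM2-KO2, against 634 to 657 in control, and that of the COPI coat was 876 to 936 and 888 to 972, against 909 to 924 in control, with overlap for both coats.

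**Figure D5:**
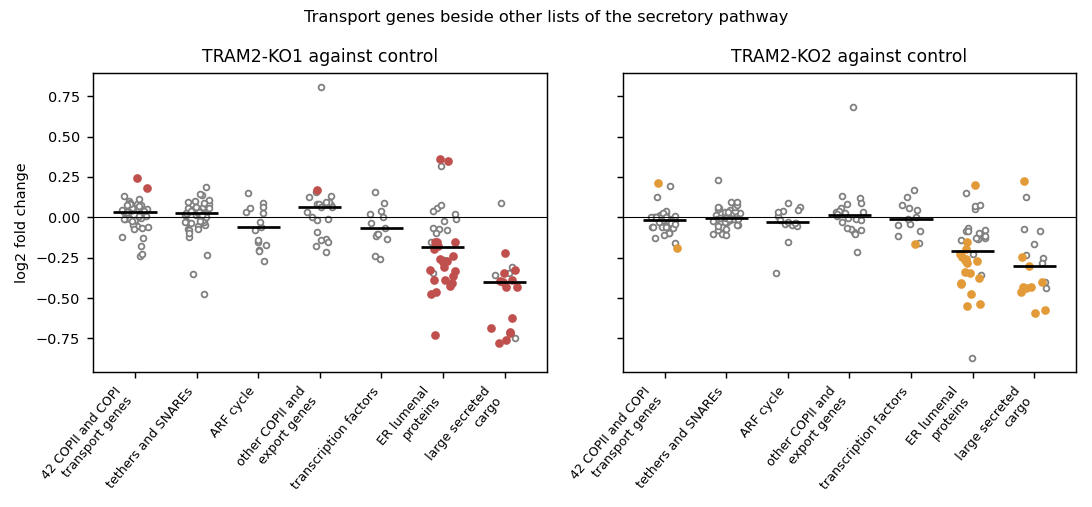
Log2 fold change of each gene of the 42 transport genes and of 6 other lists of the secretory pathway, TRAM2-KO1 left and TRAM2-KO2 right, both against control; filled points passed at an adjusted p under 0.05 and lines are medians. The medians are 0.03 and -0.02 for the transport genes, -0.18 and -0.21 for ER lumenal proteins and -0.40 and -0.30 for large secreted cargo.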

How the data were processed

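Poly(A)+ RNA of 9 libraries of MCF10A-YAP cells was analysed, 3 per group. Per the labels and the study's methods, the authors trimmed adapters (cutadapt) and ran Salmon on the reads. Neither tool's version, the transcript release nor the build is given in the sources used here. The labels name a TruSeq RNA kit and the methods a stranded one, so strand is uncertain. The deposited estimated counts per transcript are Salmon's, without normalisation. The deposited TPM values were scaled by Salmon within each library. Salmon's effective lengths, also deposited, served the length offsets.

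Estimated counts were summed per gene symbol through GENCODE release 44 on GRCh37, which gave a gene to 97.5% of 226030 transcripts, and rounded. Genes were filtered with filterByExpr (minimum count of 10) and fitted over all 9 libraries with edgeR 4.0.16 (quasi-likelihood test, TMM, group as the only term, two-sided, R 4.3.3). P values were adjusted by Benjamini-Hochberg over the 15109 genes. The 4 contrasts were each guide and the mean of both set against control, and the second guide set against the first. Summing over symbols lets transcripts of unclear origin, such as those of the CTAGE copies of MIA2, move between genes. The fit was tested on simulated data, with changes placed in genes of at least 5 CPM. For TRAM2-KO1 against control it recovered 34% of changes of 0.25 on the log2 scale and 86% of those of 0.5. A gene that did not pass may thus still have changed.

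The members and lists were chosen with earlier results of these data known. Values per library are given for members with an adjusted p under 0.05 in any contrast and for the member with the highest TPM of each role; SEC16A, MIA2, LMAN2, COPE, TMED5, TMED7 and SEC24D were added after their values were seen. From each other list up to 4 genes with the smallest p for both guides are named; 1 of them is not reported here. Alternatives were RLE factors, no filter, a mean of at least 5 CPM, DESeq2 1.42.0 (the study's tool), only the groups compared, the replicate letter as a block, the GC trend of each library removed, both together, transcript length offsets, protein-coding transcripts only, and each of the 9 libraries left out. GC removal together with leaving out TRAM2-KO1 A was added after seeing the data. Promoters are from RefSeq on GRCh38.p14.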

Additional observations from a re-analysis of the deposited data

Results flagged for a closer look

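Listed here are transport genes and named genes of the other lists that differed between the guides by edgeR, adjusted over all genes tested. Values are TRAM2-KO2 against TRAM2-KO1 on the log2 scale. Among the transport genes these were KDELR3, at -0.25 (adjusted p = 0.00543, TRAM2-KO2 lower in 3 of 3 libraries), and COPB2, at -0.14 (adjusted p = 0.0473, lower in 3 of 3). Among the named genes of the other lists, PDIA4 was at 0.18 (adjusted p = 0.00866) and higher in TRAM2-KO2 in 3 of 3 libraries, while PLOD2 was at -0.15 (adjusted p = 0.0340) and lower in 3 of 3. The difference for PLOD2 passed in 11 of 20 other ways of processing and in 2 of 9 with 1 library left out; it was lost without control A, B or C, TRAM2-KO1 B or C, or TRAM2-KO2 A or B, with the compared groups alone and with length offsets, at adjusted p values of up to 0.458. That for PDIA4 passed in 18 of 20, lost without TRAM2-KO2 B and with length offsets, at adjusted p values of up to 0.221. PDIA4 and PLOD2 fell with each guide, so for them the size of the fall differed and not its direction. Genes not named also passed between the guides. Of 36 lumenal genes, 2 were higher and 2 lower in TRAM2-KO2. Of 19 large cargo genes, 5 were higher and 0 lower. Of all genes, 1.42% were higher and 0.867% lower.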

How the results depend on the processing

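Of 2761 values of named genes under an alternative, 2509 kept their sign and their side of the threshold, 78 lost the threshold and 58 gained it. The sign changed in 116, over 28 results, none of which passed under either setting; 41 of these came with a GC correction and 12 with length offsets. The number of transport genes called was 2 in each comparison. For TRAM2-KO1 it became 4 with no filter, 4 at a mean of at least 5 CPM, 5 with DESeq2, 4 with the GC trend removed, and 1 each with only the compared groups in the fit, length offsets and protein-coding transcripts; leaving out 1 library gave 1 to 8, with 8 without TRAM2-KO1 A and 1 without control A, B or C. For TRAM2-KO2 it became 7 with the GC trend removed, 6 with that and without TRAM2-KO1 A, 4 with it and the replicate block, and 1 each with length offsets and protein-coding transcripts; leaving out 1 library gave 1 to 3, with 1 without control A, B or C or TRAM2-KO2 B. For both guides it became 4 with no filter, 4 with DESeq2, 6 with the GC trend removed, 7 with that and without TRAM2-KO1 A, 5 with it and the block, and 1 with length offsets; leaving out 1 library gave 1 to 5, with 5 without TRAM2-KO1 B, 4 without TRAM2-KO1 A and 1 without control A, B or C. Between the guides it became 1 each with RLE factors, only the compared groups, the block, the block with GC removal and protein-coding transcripts, 4 with DESeq2 and 0 with length offsets (by edgeR); leaving out 1 library gave 1 to 5, with 5 without TRAM2-KO1 A and 1 without any other library. The cause of these moves was not tested.

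Over all genes, 447 passed with TRAM2-KO1, 288 with only the compared groups, 112 with length offsets and 784 with the GC trend removed and without TRAM2-KO1 A; leaving out 1 library gave 244 to 1965, with 1965 without TRAM2-KO1 A, 275 without TRAM2-KO1 C and 244 to 254 without a control. With TRAM2-KO2, 642 passed, 1063 with the GC trend removed, 978 with the block too, 1061 with it and without TRAM2-KO1 A, and 153 with length offsets; leaving out 1 library gave 326 to 773, with 326 to 352 without a control and 345 to 372 without a TRAM2-KO2 library. For both guides 584 passed, 163 with length offsets and 931 with the GC trend removed and without TRAM2-KO1 A; leaving out 1 library gave 284 to 1051, with 1051 without TRAM2-KO1 A and 284 to 307 without a control. Between the guides 346 passed, 582 with no filter, 584 with DESeq2, 116 with only the compared groups, 550 with the GC trend removed, 718 with it and without TRAM2-KO1 A, 49 with length offsets and 221 with protein-coding transcripts; leaving out 1 library gave 107 to 1846, with 1846 without TRAM2-KO1 A and 107 to 210 without any other library. With TRAM2-KO1, other settings gave 610 genes (no filter), 535 (a mean of at least 5 CPM) and 662 (DESeq2). Removal of the GC trend gave 528 there, and protein-coding transcripts 362. With TRAM2-KO2, 449 passed with protein-coding transcripts. For both guides, 599 passed with no filter, 639 with DESeq2, 858 with the GC trend removed and 790 with the block too. Between the guides, 346 passed with RLE factors and 465 with the block and GC removal. The fit of only the groups compared gives no value for both guides.

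No pairing of libraries by the letters A, B and C was seen. Correlations of the deviations of same-letter libraries ran from -0.087 to 0.093, and those of different-letter libraries from -0.146 to 0.122. These correlations cannot tell whether same-letter libraries shared a culture or batch. With the replicate block, 417, 567, 531 and 288 of all genes passed with TRAM2-KO1, TRAM2-KO2, both guides and between guides, and 2, 2, 2 and 1 of the transport genes. Each of the 42 genes had at least 500 reads in every library.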
